A study of Mus musculus with 40 samples.

Results

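Hematopoietic progenitor cells carrying NUP98-HOXD13 (NHD13) alone were compared directly with those carrying Flt3-ITD alone, both from mice aged 14 days (P14). The comparison rests on 8 of the 40 samples of the series, taken by genotype and age from the labels: the 4 P14 libraries of NUP98-HOXD13 and the 4 P14 libraries of FLT3-ITD. The labels give the source of every library as hematopoietic progenitor or multipotent progenitor (MPP) cells, and no treatment. Wild-type and Flt3-ITD/NHD13 libraries of the same age, 4 each, are shown beside them as levels, without a test. The libraries of Runx1-HET and Flt3-ITD/Runx1-HET at P14 entered the fit for its estimate of the spread and are not described. Whether the Flt3-ITD animals carried 1 or 2 altered alleles, and which promoter drives the fusion gene, is not given in the sources used here.

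Both lesions occur in acute myeloid leukemia, and they act at different levels of the cell. FLT3 is a receptor tyrosine kinase of early blood progenitors, and its internal tandem duplication makes it signal without ligand, with strong activation of the transcription factor STAT5 besides the RAS-MAPK and PI3K routes. NUP98-HOXD13 joins part of a nuclear pore protein to the DNA-binding homeodomain of a HOX protein, and is known for holding HOX genes on in progenitors that would otherwise turn them down. In mice the fusion causes a myelodysplastic disease that can turn into leukemia. The direct comparison shows which transcripts separate the progenitors of a signalling lesion from those of a chromatin-bound lesion at the same age.

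Each of the 8 libraries held between 16923283 and 27289085 counts. Each correlated with the mean of the other libraries of its group at r from 0.9867 to 0.9912 across genes. With the mean of the other group, r was lower, from 0.959 to 0.9626. Principal components were computed on the genes that varied most across these same 8 libraries. The first carried 74.6% of the variance of those genes. It put all NHD13 libraries on one side and all Flt3-ITD libraries on the other. Mitochondrial genes took 1.083% to 1.762% of the counts in NHD13 and 1.258% to 2.378% in Flt3-ITD. All 4 Flt3-ITD libraries and 3 of 4 NHD13 libraries carried more counts from Y-linked genes than from Xist. NHD13 replicate 1 is the exception, so the groups do not have the same sex makeup. Nothing in the labels ties a library to an animal of its own. The p-values therefore cover only the variation among libraries within the 6 P14 groups of the fit, which may be technical. In bulk RNA, fewer cells of a type and less RNA per cell cannot be told apart.

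At this comparison 1326 of 14394 tested genes were higher in NHD13 (9.21%) and 1328 were higher in Flt3-ITD (9.23%), by edgeR's quasi-likelihood test at a Benjamini-Hochberg adjusted p under 0.05. Together that is 18.4% of the genes tested. The median log2 fold change of the called genes was 0.83 in size. Changes of at least 2-fold were called for 628 genes higher in NHD13 (4.36%) and 554 higher in Flt3-ITD (3.85%). For 3155 genes (21.9%) the 4 libraries of one group all lay above the 4 of the other. Levels are CPM, counts scaled to the depth of the library, given library by library in the order of the replicate numbers, and ± after a CPM is the SD over 4 libraries. Each log2 fold change is NHD13 minus Flt3-ITD ± SE, so a positive value is higher in NHD13 and a negative one higher in Flt3-ITD. Every adjusted p is from edgeR over all 14394 genes.

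Among 22 gene lists, the medians ran from 6.53 for the HOX clusters to -1.05 for STAT5 target genes, against -0.005 over all tested genes. The lists at the NHD13 end were HOX, megakaryocyte, erythroid, fetal progenitor and MAPK feedback genes. Those at the Flt3-ITD end were STAT5 target, granulocyte-monocyte progenitor and lymphoid genes. Cell cycle, ribosome biogenesis, heme synthesis and polycomb genes had medians between -0.13 and 0.04. Over all tested genes 9.21% were higher in NHD13 and 9.23% in Flt3-ITD, and every list count below stands beside these shares.

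**Figure D1:**
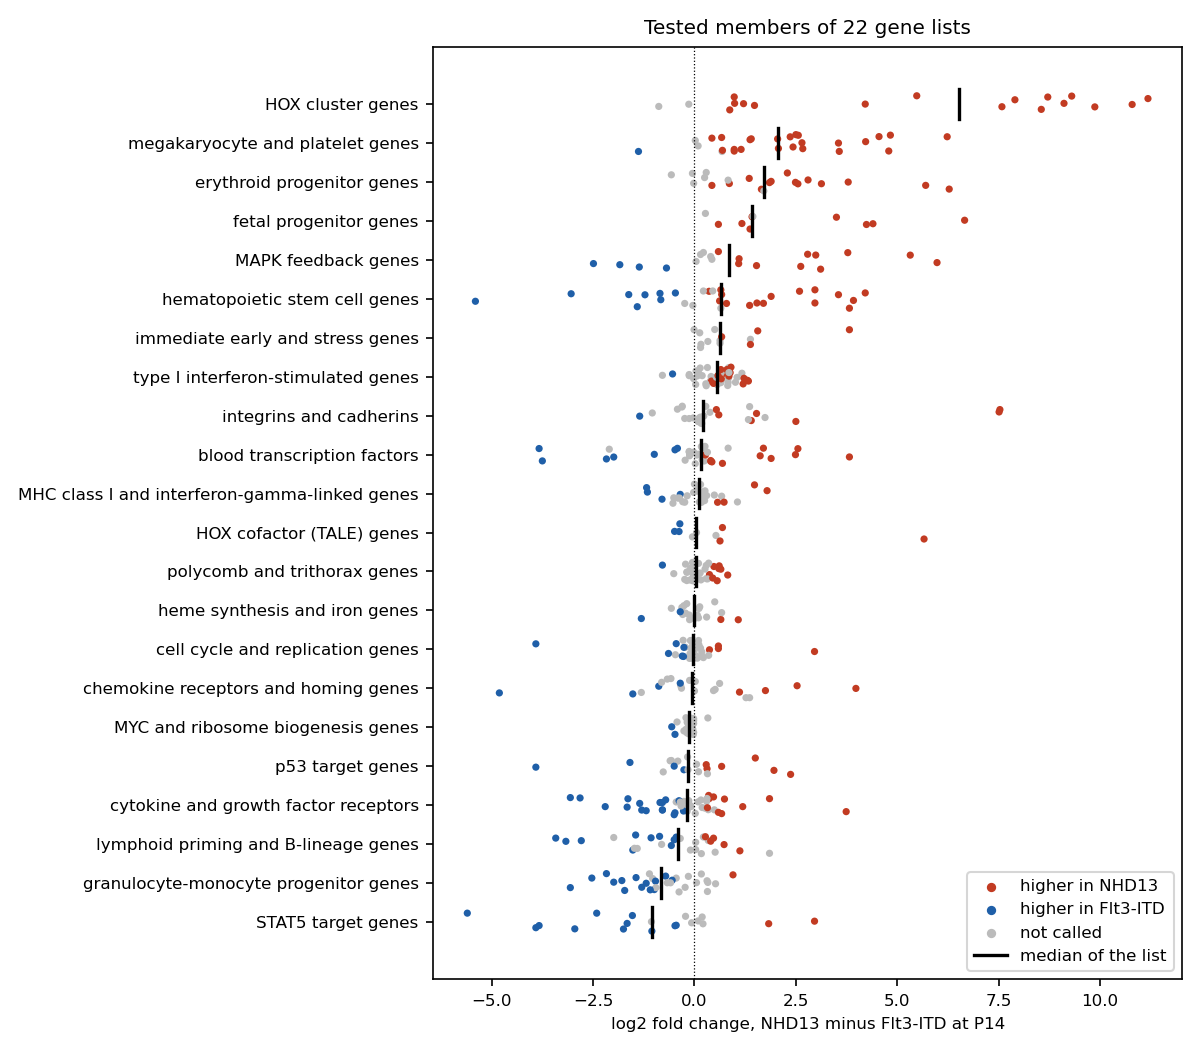
Log2 fold change (NHD13 minus Flt3-ITD at P14) of every tested member of 22 gene lists, 1 point per gene, coloured by the edgeR call, with a black bar at each list's median. The HOX list lies farthest to the right with a median of 6.53 and the STAT5 list farthest to the left with -1.05, while most members of the cell cycle and ribosome biogenesis lists lie close to 0.

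The altered genes were checked first. Hoxd13 (ENSMUSG00000001819, GRCm38 chromosome 2, 74668310 to 74671599, plus strand), the HOX partner of the fusion, stood at 3.6, 3.8, 3.99 and 4.21 CPM in the NHD13 libraries and at 0 in all 4 Flt3-ITD libraries. Its 342 counts against 0 make it at least 104-fold higher in NHD13, with the bound set at 3 counts over the 4 Flt3-ITD libraries. Nup98 (ENSMUSG00000063550, chromosome 7, 102119398 to 102210176, minus strand), the nuclear pore partner, was at 48.2, 54.1, 51.6 and 48.3 CPM in NHD13 and 38.8, 34, 28.8 and 35.8 CPM in Flt3-ITD. These groups do not overlap, and the difference was 0.56 ± 0.11 (adjusted p = 0.000542). Flt3 itself (ENSMUSG00000042817, chromosome 5, 147330741 to 147400489, minus strand) was at 863, 1087, 1066 and 1055 CPM in NHD13 and lower, at 702, 777, 701 and 752 CPM, in Flt3-ITD (0.47 ± 0.09, adjusted p = 0.000124). In the wild type Flt3 averaged 1372 ± 138 CPM, above both. Whole-gene counts do not separate the duplicated from the normal Flt3 allele, nor fusion transcripts from normal ones.

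HOX genes are laid out in 4 clusters that pattern the body axis, and in blood the HOXA and HOXB genes are active in stem cells and early progenitors and fall as cells mature. Of 39 HOX genes, 18 passed the filter on low counts, and 16 of these were called higher in NHD13 and 0 higher in Flt3-ITD, where 1, Hoxb4, had an unadjusted p under 0.05 in edgeR and 0 passed in DESeq2. Since a gene silent in Flt3-ITD could pass that filter only through libraries in which it is expressed, this count describes the family and tests nothing. The fitted median of 6.53 becomes 5.1 when the 5 genes with no count in Flt3-ITD are put at their bound. The remaining 21 HOX genes were too low to be tested.

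The HOX genes fell into 2 kinds. Those of the first kind were nearly silent in Flt3-ITD. Hoxc5 stood at 45.5, 43.6, 40.4 and 42.7 CPM in NHD13. Its counts were 3770 over the NHD13 libraries and 1 over the Flt3-ITD libraries, a ratio of 3450 (95% counting interval 620 to 136000). Hoxc6 had 1520 counts against 1 and Hoxc8 had 1495 against 2, a ratio of 685 (189 to 5660) for the latter. Hoxc4 reached 10.9 ± 1.71 CPM in NHD13 with no count in Flt3-ITD, at least 295-fold higher. Hoxc9, Hoxb8 and Hoxd8 also had no count in any Flt3-ITD library and were at least 30.5-fold, 38.8-fold and 70.2-fold higher in NHD13. Hoxb7 had 609 counts against 1, a ratio of 558 (99.8 to 22100), and Hoxb6 had 122 against 2, a ratio of 55.9 (15.1 to 467). Neighbours of Hoxd13 in the HOXD cluster were not on: Hoxd10, Hoxd11 and Hoxd12 had no count in either group, and Hoxd9 had 5 counts in NHD13 and 0 in Flt3-ITD. Hoxc5 overlaps Hoxc6, Hoxc8 and Hoxc9 on the same strand in the annotation, so how reads were divided among these 4 is uncertain.

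Those of the second kind were expressed in both groups. Hoxa9 (chromosome 6, 52223100 to 52231089, minus strand), a stem cell gene and leukemia factor, was at 139, 148, 109 and 131 CPM in NHD13 and 53.4, 38.9, 50.7 and 45.2 CPM in Flt3-ITD, without overlap (1.48 ± 0.11, adjusted p = 1.46e-11). Hoxa7 averaged 125 ± 7.83 CPM against 68.4 ± 5.78 CPM, a difference of 0.87 ± 0.08. Hoxa10 differed by 0.98 ± 0.14, Hoxa5 by 0.99 ± 0.23 and Hoxa3 by 1.21 ± 0.32. Hoxb5, which marks long-term stem cells, was in between at 4.43 ± 0.702 CPM against 0.253 ± 0.243 CPM (4.21 ± 0.50). The exceptions were Hoxa6 (-0.14 ± 0.58, adjusted p = 0.919) and Hoxb4, whose value lay on the other side (-0.88 ± 0.36, adjusted p = 0.0933). Hoxb4 stood at 1.23, 0.769, 1.25 and 1.4 CPM in NHD13 and 2.37, 2.11, 1.67 and 2.35 CPM in Flt3-ITD, and it passed the test, as higher in Flt3-ITD, in a fit of these 8 libraries alone.

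**Figure D2:**
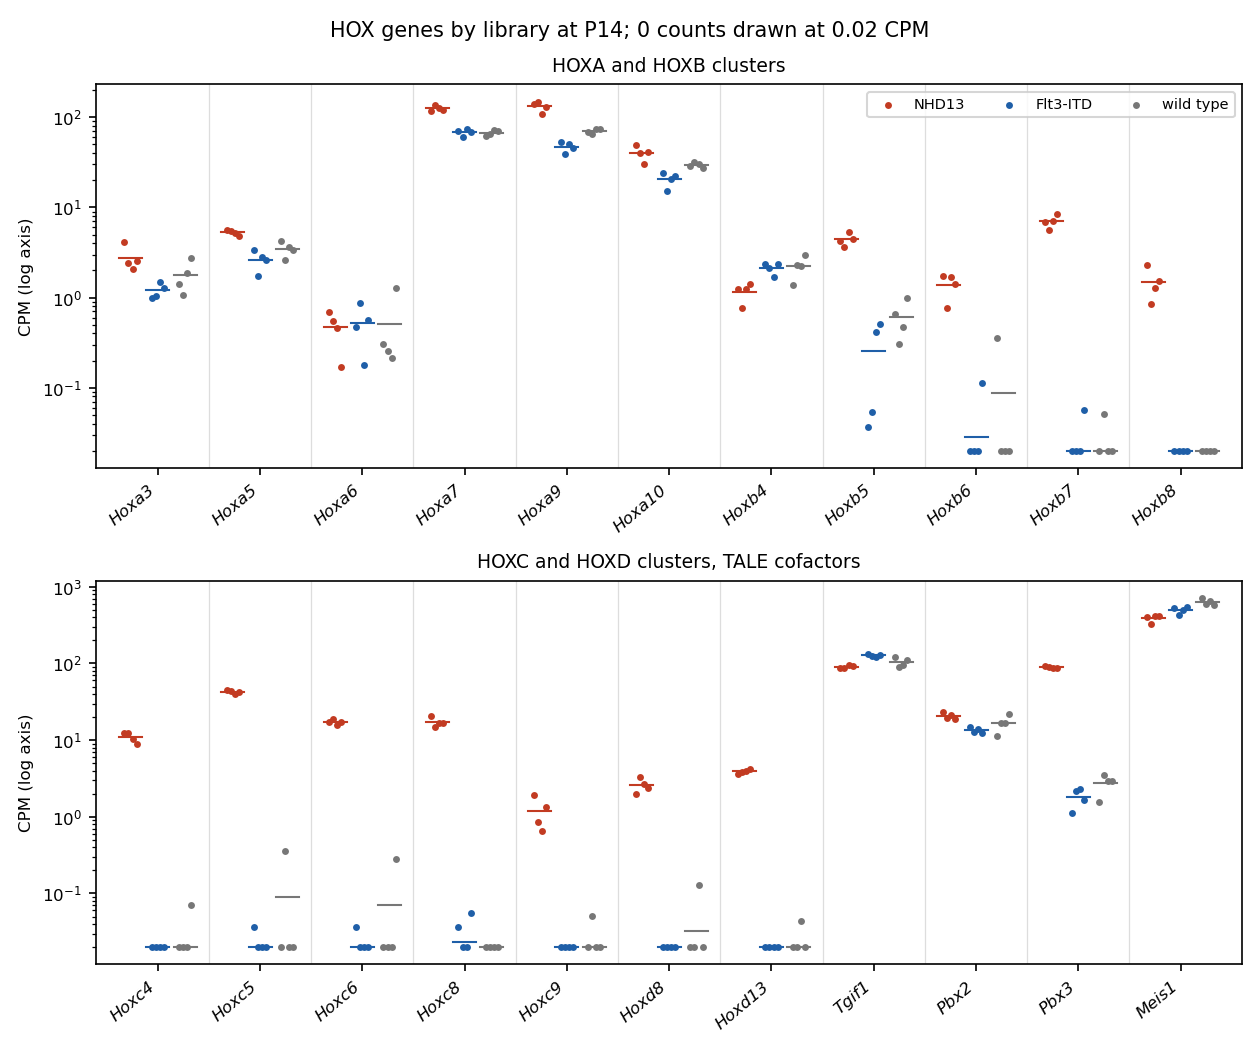
CPM (log axis) of HOX genes and TALE cofactors in each P14 library of NHD13, Flt3-ITD and wild type; points are libraries, bars are group means, and values or means under 0.02 CPM are drawn at 0.02. Hoxc4 to Hoxc9, Hoxb6 to Hoxb8, Hoxd8 and Hoxd13 are at or near 0 in Flt3-ITD and wild type, whereas the HOXA genes are present in all 3 groups.

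HOX proteins bind DNA with partners of the TALE class, and of 9 tested TALE genes 3 were higher in NHD13 and 3 in Flt3-ITD (median 0.05). Pbx3 (chromosome 2, 34171457 to 34373142, minus strand), a HOXA9 partner, was at 92.8, 89.5, 88.2 and 88.2 CPM in NHD13 and 1.13, 2.16, 2.27 and 1.68 CPM in Flt3-ITD. No library of either group came near the other (5.66 ± 0.21, adjusted p = 5.31e-18). Pbx2 (0.63 ± 0.14) was higher in NHD13 by less. Meis1, the other main HOXA9 partner, was higher in Flt3-ITD at 531, 429, 491 and 540 CPM against 398, 323, 421 and 415 CPM (-0.36 ± 0.09, adjusted p = 0.00374). Pknox1 (-0.38 ± 0.10) and Tgif1 (-0.49 ± 0.08) were on the same side as Meis1, and Pknox1 lost its call without Flt3-ITD replicate 2.

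Fetal progenitor genes are active in blood formation before birth and are turned down in the weeks after it. Of 14 such genes 10 were tested, and 8 were higher in NHD13 (median 1.43). In Flt3-ITD 0 were higher by edgeR, 0 at an unadjusted p under 0.05 and 0 by DESeq2. Lin28b (chromosome 10, 45376620 to 45486395, minus strand), an RNA-binding regulator of the fetal program, was at 60.3, 63.3, 61.1 and 63 CPM in NHD13 and 3.07, 4.11, 1.85 and 2.58 CPM in Flt3-ITD (4.40 ± 0.17, adjusted p = 9.7e-18). The 2 groups were far apart. The wild type was at the Flt3-ITD level (3.12 ± 0.263 CPM) and Flt3-ITD/NHD13 at the NHD13 level (56.1 ± 4.41 CPM). The RNA-binding proteins Igf2bp2 (1.37 ± 0.19) and Igf2bp3 (1.17 ± 0.20), the DNA-binding factor Arid3a (1.42 ± 0.17) and the chromatin protein Hmga2 (0.59 ± 0.14) were higher in NHD13 by smaller amounts. Hmga2 is a LIN28B-linked stem cell factor, at 181 ± 30.6 CPM against 120 ± 16.6 CPM. The imprinted growth genes Igf2 (4.24 ± 0.66) and H19 (3.50 ± 0.47) were low everywhere, with means of 3.01 ± 0.91 CPM and 5.06 ± 1.79 CPM in NHD13 and under 0.5 CPM in Flt3-ITD. Plagl1, an imprinted regulator of that gene network, had 54 counts in NHD13 and 0 in Flt3-ITD, at least 16.5-fold higher. Mest (1.44 ± 0.83, adjusted p = 0.267) and Fn3k (0.27 ± 0.61, adjusted p = 0.834) did not pass.

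Among called genes whose log2 CPM averaged 2 or more over the 8 libraries and whose groups did not overlap, the largest difference in favour of NHD13 was that of Mab21l2 (chromosome 3, 86545581 to 86548629, minus strand), a gene of eye and body-wall development. It stood at 125, 180, 95.9 and 141 CPM in NHD13 and 0.219, 0.0541, 0 and 0.112 CPM in Flt3-ITD (10.17 ± 0.30, adjusted p = 4.87e-20). It lies within Lrba on the opposite strand, and the strand setting of the counting is not given in the sources used here, so reads of the pair may not be told apart. The growth factor Igf1 was at 211, 167, 176 and 215 CPM against 14, 12, 10.3 and 12.1 CPM (3.98 ± 0.17). Each NHD13 library thus held several times the level of any Flt3-ITD library for both genes. Klhl4 (5.29 ± 0.36), of the Kelch family, and Trib2 (5.61 ± 0.46), a pseudokinase that can drive myeloid leukemia in mice by degrading C/EBPalpha, were also among the 15 highest. The small GTPase Gem was at 290 ± 26.4 CPM in NHD13 and 12 ± 1 CPM in Flt3-ITD (4.59 ± 0.19), with 153 ± 22 CPM in the wild type between them. Gpr174 (3.97 ± 0.32), a lysophosphatidylserine receptor, and Eya1 (1.85 ± 0.10), a developmental transcription cofactor, complete the set, the latter for its small p (4.17e-14).

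Megakaryocytes make platelets and share a precursor with red cells. Of 27 tested megakaryocyte and platelet genes, 23 were higher in NHD13 and 1 in Flt3-ITD, with a median of 2.07. Pf4 (chromosome 5, 90772435 to 90773383, plus strand), the platelet chemokine, was at 656, 158, 595 and 742 CPM in NHD13 and 7.41, 7.69, 8.36 and 5.26 CPM in Flt3-ITD (6.23 ± 0.48, adjusted p = 1.01e-08). NHD13 replicate 2 was the lowest of its group yet far above every Flt3-ITD library. The same replicate was lowest for Vwf, the platelet adhesion protein, at 36.2, 12.7, 43.8 and 39 CPM against 3.65, 3.03, 1.79 and 2.58 CPM (3.55 ± 0.34), and for Itga2b, the alpha subunit of the fibrinogen receptor, at 100, 42, 120 and 103 CPM against 18.6, 18.1, 12.5 and 15 CPM (2.50 ± 0.25).

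Further platelet genes higher in NHD13 were the receptor Treml1 (4.79 ± 0.27), the caveola protein Cavin2 (4.55 ± 0.45), the podoplanin receptor Clec1b (4.83 ± 0.99), the chemokine Ppbp (4.22 ± 0.51), the ADP receptor P2ry1 (3.57 ± 0.27) and the von Willebrand receptor subunits Gp1ba (2.56 ± 0.22), Gp5 (2.05 ± 0.51) and Gp9 (1.37 ± 0.21). Mmrn1, a platelet adhesion protein that is also expressed in stem cells, was the exception, at 24.4 ± 2.64 CPM in NHD13 and 63.2 ± 7.35 CPM in Flt3-ITD (-1.38 ± 0.23, adjusted p = 0.000104). The general megakaryocyte factors Nfe2 (0.02 ± 0.10) and Fli1 (0.09 ± 0.13) did not pass (adjusted p = 0.928 and 0.736).

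Of 21 tested erythroid progenitor genes, 14 were higher in NHD13 (median 1.71). In Flt3-ITD 0 were higher by edgeR, 0 at an unadjusted p under 0.05 and 0 by DESeq2. Gata1, the master factor of the megakaryocyte and erythroid lineages (chromosome X, 7959260 to 7978071, minus strand), was at 53.5, 63.9, 74.7 and 66.8 CPM in NHD13 and 13.6, 12.7, 9.02 and 8.73 CPM in Flt3-ITD (2.55 ± 0.19, adjusted p = 2.38e-11). The wild type was at 11.1 ± 2.52 CPM, the level of Flt3-ITD. Car1, a carbonic anhydrase of early erythroid cells, was at 114, 246, 123 and 215 CPM against 5.55, 0.704, 1.67 and 0.28 CPM (6.28 ± 0.70). It was the widest difference of the list. Rhd, an Rh blood group protein (3.13 ± 0.47), Klf1, the erythroid Kruppel-like factor (2.49 ± 0.40), and Epor, the erythropoietin receptor (1.85 ± 0.30), were on the same side at means of 5.09 ± 3.92, 4.37 ± 1.43 and 7.06 ± 1.57 CPM in NHD13. Tal1 (-0.02 ± 0.14, adjusted p = 0.953) and the transferrin receptor Tfrc (-0.57 ± 0.40, adjusted p = 0.395) did not pass.

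Of 21 heme synthesis and iron genes 2 were higher in NHD13 and 2 in Flt3-ITD, near the 18.4% called over all tested genes, and 17 did not pass. The heme oxygenase Hmox1 (1.08 ± 0.28) and the iron sensor Tfr2 (0.65 ± 0.10) were higher in NHD13, and the ferrireductase Steap3 (-1.31 ± 0.13) and the ferritin heavy chain Fth1 (-0.35 ± 0.07) in Flt3-ITD. Without Flt3-ITD replicate 2 the number higher in NHD13 was 4. The 8 mature erythrocyte markers summed to 212 to 262 CPM in NHD13 and 76.7 to 86.2 CPM in Flt3-ITD. Globin transcripts took 0.0152% to 0.0208% of the counts in NHD13 and 0.0039% to 0.0045% in Flt3-ITD. Hbb-bt, a beta globin, was at 189 ± 27.8 CPM and 38.8 ± 4 CPM (2.29 ± 0.21), and its reads can be shared with its paralog Hbb-bs. The alpha globin Hba-a1 was near 1 CPM in both (-0.05 ± 0.51, adjusted p = 0.974), and Alas2, the first enzyme of erythroid heme synthesis, was at 0.405 ± 0.184 CPM and 0.293 ± 0.162 CPM (0.50 ± 0.73, adjusted p = 0.731). Hbb-bt stands both in this marker list and in the erythroid list, and the part of mature red cells in the difference was not tested.

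A mast cell program was the other large difference of this kind. Of 15 tested mast cell, basophil and eosinophil markers, 7 were higher in NHD13 and 1 in Flt3-ITD (median 1.2). Cma1, the mast cell chymase (chromosome 14, 55941451 to 55944675, minus strand), was at 544, 923, 252 and 474 CPM in NHD13 and 4.67, 0.595, 2.21 and 4.98 CPM in Flt3-ITD (7.42 ± 0.86, adjusted p = 2.5e-06). Cpa3, the mast cell carboxypeptidase that early progenitors also express, was at 281, 368, 115 and 193 CPM against 13.7, 17.6, 10.9 and 15.5 CPM (4.05 ± 0.39). Neither gene had overlapping groups, though the NHD13 libraries themselves ranged widely. Mcpt4 (6.15 ± 1.07), Tpsb2 (5.45 ± 1.05) and the IgE receptor chain Ms4a2 (3.52 ± 0.56) were on the same side, and reads of Tpsb2 can be shared with its paralog Tpsab1. Il1rl1, the IL-33 receptor of mast cells, was at 7.28 ± 2.71 CPM against 0.542 ± 0.211 CPM (3.74 ± 0.50).

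The member higher in Flt3-ITD was the basophil protease Mcpt8, at 2.86, 2.35, 4.29 and 2.24 CPM in NHD13 and 9.23, 16.7, 12.2 and 11.1 CPM in Flt3-ITD (-2.05 ± 0.38, adjusted p = 0.000183). Prss34, another basophil protease, was at 19.5, 35.3, 6.34 and 12.4 CPM and 0.109, 0.108, 30.2 and 2.07 CPM (1.20 ± 1.11, adjusted p = 0.544), and passed as higher in NHD13 without Flt3-ITD replicate 3. Among eosinophil genes, Epx (-3.48 ± 1.86) had an adjusted p of 0.234 and Prg2 (-1.75 ± 1.30) of 0.426, and Epx passed in DESeq2. Flt3-ITD replicate 4 alone carried 18.8 CPM of Epx. The 16 markers of this list summed to 633 to 2011 CPM in NHD13, 45.9 to 114 CPM in Flt3-ITD, 276 to 918 CPM in the wild type and 86.2 to 363 CPM in Flt3-ITD/NHD13. Most of the wild-type sum came from eosinophil genes, with Prg2 at 300 ± 250 CPM and Epx at 86.6 ± 59 CPM. The mast cell genes Cma1, Tpsb2 and Cpa3 averaged 4.55, 8.15 and 10.7 CPM in the wild type. Their Flt3-ITD means were similar, at 3.12, 8.21 and 14.4 CPM. The part of mast cells, basophils and eosinophils in the other differences was not tested. Fcer1a, the alpha chain of the IgE receptor, had no count in Flt3-ITD.

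Short promoter windows of a pair of these lineage genes are printed because their lists moved together and GATA factors bind the letters AGATAA. Each runs 5′ to 3′ on the gene's strand, from the RefSeq promoter table of GRCm38.p6, with the motif in capitals as it reads on that strand.
Gp5 promoter (chr16:30310828-30310899, minus strand): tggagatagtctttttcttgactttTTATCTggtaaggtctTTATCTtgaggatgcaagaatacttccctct
Epor promoter (chr9:21963600-21963655, minus strand): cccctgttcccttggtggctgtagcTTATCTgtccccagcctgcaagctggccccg
In these promoter windows, which span 250 bases before to 50 after each start, AGATAA on either strand was found in 6 of 28 windows of the megakaryocyte and erythroid genes higher in NHD13 (21.4%) and in 11.2% of all 32851 windows. The 28 windows cover 27 of the 37 genes. A match is a description of the letters and not a binding site.

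**Figure D3:**
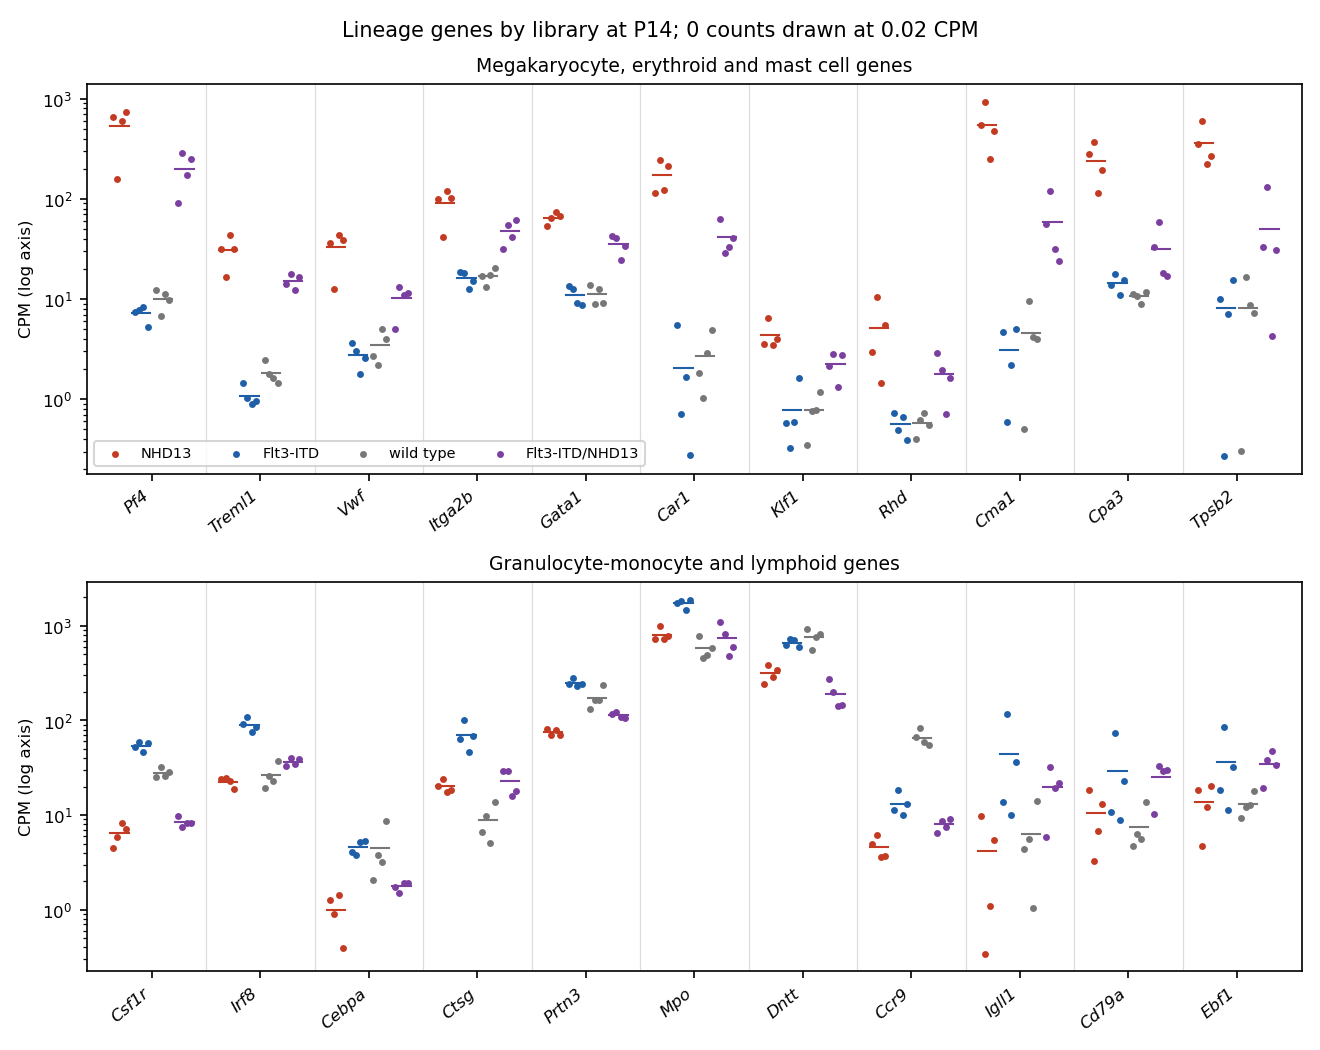
CPM (log axis) of lineage genes in each P14 library of NHD13, Flt3-ITD, wild type and Flt3-ITD/NHD13; points are libraries, bars are group means and 0 counts are drawn at 0.02 CPM. In the upper row every NHD13 library lies above every Flt3-ITD library for all 11 genes, and in the lower row Flt3-ITD lies above NHD13 for Csf1r to Ccr9, while Igll1, Cd79a and Ebf1 spread widely within both groups.

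Stem cell genes divided between the 2 genotypes. Of 29 tested, 16 were higher in NHD13 and 8 in Flt3-ITD, and for 24 the groups did not overlap (median 0.65). Over all tested genes 18.4% were called and 21.9% had groups without overlap. On the NHD13 side were Slamf1, the CD150 antigen of stem and megakaryocyte-biased cells, at 40.1, 26.6, 54.1 and 47.7 CPM against 5.8, 4.87, 5.74 and 5.1 CPM (2.97 ± 0.18), Mecom, a self-renewal factor, at 123 ± 8.77 CPM against 42.3 ± 6.35 CPM (1.54 ± 0.12), and Gata2, at 184 ± 31.2 CPM against 56.6 ± 4.87 CPM (1.70 ± 0.12). Neo1 (2.97 ± 0.37), Nupr1 (2.59 ± 0.25), Gfi1b (1.89 ± 0.32), the niche factor Angpt1 (1.36 ± 0.14) and Hlf (0.62 ± 0.12) were also higher in NHD13. Vwf and Gfi1b of this list are genes of the megakaryocyte lineage as well.

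Among the members higher in Flt3-ITD, Ifitm1, an interferon-inducible membrane protein, was at 55.2, 42, 46.5 and 43.5 CPM in NHD13 and 1911, 1835, 2236 and 1900 CPM in Flt3-ITD (-5.40 ± 0.13, adjusted p = 9.98e-23). The wild type averaged 293 ± 33.4 CPM and Flt3-ITD/NHD13 670 ± 87.3 CPM, so both single mutants lay outside the wild-type range, on opposite sides. Esam, an adhesion protein of stem cells, was at 4.54, 4.15, 6.68 and 4.38 CPM against 51.8, 24.7, 50.9 and 36.3 CPM (-3.04 ± 0.28), close to its wild-type mean of 44.9 ± 14.7 CPM in Flt3-ITD. Fgd5 (-1.62 ± 0.27), Robo4 (-1.41 ± 0.17), Ndn (-1.22 ± 0.26) and Cd34 (-0.85 ± 0.08) followed the same order. Cd34, the progenitor surface antigen, averaged 1178 ± 126 CPM in NHD13 and 2129 ± 46.1 CPM in Flt3-ITD. Ly6a, which encodes Sca-1, passed narrowly (-0.47 ± 0.16, adjusted p = 0.0471) and lost its call in 11 of 14 alternatives, among them leaving out Flt3-ITD replicate 1, 2 or 3 or any 1 NHD13 library. Procr was level (-0.04 ± 0.19, adjusted p = 0.939).

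STAT5 is the transcription factor that FLT3-ITD activates directly, and its targets include feedback inhibitors of cytokine signalling and survival kinases. Of 19 tested STAT5 target genes, 11 were higher in Flt3-ITD and 2 in NHD13 (median -1.05). Socs2 (chromosome 10, 95385362 to 95417180, minus strand), a feedback inhibitor, was at 4.84, 6.92, 1.67 and 4.38 CPM in NHD13 and 238, 171, 231 and 218 CPM in Flt3-ITD (-5.60 ± 0.26, adjusted p = 5.79e-13). It had the largest difference in favour of Flt3-ITD among called genes whose log2 CPM averaged 2 or more and whose groups did not overlap. Cish, another inhibitor of the same family, was at 15.6, 18.9, 17.6 and 18 CPM against 105, 73.2, 105 and 89.3 CPM (-2.41 ± 0.15, adjusted p = 8.59e-13). The survival kinase Pim1 was at 88.1, 69.9, 68 and 89.1 CPM against 257, 221, 239 and 278 CPM (-1.66 ± 0.15). For each of these 3 genes the wild type lay between the mutants, at means of 10.4 ± 2.44, 29.7 ± 6.34 and 135 ± 17.2 CPM.

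The cell cycle inhibitor Cdkn1a was at 3.45, 2.09, 2.77 and 2.86 CPM in NHD13 and 35, 60.6, 29.2 and 43.5 CPM in Flt3-ITD (-3.91 ± 0.21), and Id1, an inhibitor of helix-loop-helix factors, at 2.07, 1.28, 1.82 and 1.46 CPM against 25.5, 24.1, 20.7 and 24.4 CPM (-3.83 ± 0.27). No library of one group reached the other group for either gene. Socs3 (-2.95 ± 0.44), Pim2 (-1.53 ± 0.19), Il2ra (-1.75 ± 0.57), the survival gene Bcl2 (-1.05 ± 0.14), Myc (-0.48 ± 0.13) and Ccnd2 (-0.45 ± 0.09) made up the rest, and Myc lost its call without Flt3-ITD replicate 2. Il2ra lost its call with no filter on low counts and without Flt3-ITD replicate 1 or NHD13 replicate 2 or 4. The 2 members on the other side were the G1 cyclin Ccnd1, at 37, 39.4, 36.1 and 34.8 CPM in NHD13 and 4.67, 6.77, 3.58 and 3.81 CPM in Flt3-ITD (2.96 ± 0.25), and Bcl6 (1.83 ± 0.37), a repressor that STAT5 turns down. For both, the wild-type means of 29.8 ± 10.4 and 3.21 ± 1.18 CPM were near those of NHD13, 36.8 ± 1.92 and 2.64 ± 0.428 CPM.

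The promoter windows of Cish and Socs3 are shown because each holds the letters TTCNNNGAA that STAT factors bind. They run 5′ to 3′ on the gene's strand (RefSeq, GRCm38.p6), with the motif in capitals.
Cish promoter (chr9:107296634-107296678, plus strand): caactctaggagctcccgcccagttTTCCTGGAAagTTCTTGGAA
Socs3 promoter (chr11:117969487-117969545, minus strand): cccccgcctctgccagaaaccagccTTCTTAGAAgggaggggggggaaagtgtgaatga
TTCNNNGAA, which reads the same on both strands, was found in 2 of 9 windows of the 7 matched genes that were higher in Flt3-ITD (22.2%) and in 8.3% of all 32851 windows. With so few windows this is a description only.

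MAPK feedback genes are switched on by ERK and damp it in turn. Of 20 tested, 11 were higher in NHD13 and 4 in Flt3-ITD (median 0.84). Dusp6, the phosphatase that inactivates ERK (chromosome 10, 99263231 to 99267489, plus strand), was at 267, 449, 254 and 306 CPM in NHD13 and 45.1, 54.8, 42.7 and 41.3 CPM in Flt3-ITD (2.79 ± 0.27, adjusted p = 1.47e-07). Spry4, an inhibitor of receptor signalling to RAS, was at 6.91, 13, 6.95 and 7.12 CPM against 0, 0.216, 0.358 and 0 CPM (5.98 ± 0.65). Etv5, an ETS factor downstream of ERK, was at 25.6, 33.4, 29.7 and 29.7 CPM against 3.32, 7.09, 3.17 and 5.71 CPM (2.62 ± 0.24). The groups stood clear of each other for all 3. Dusp4 (3.78 ± 0.72), Etv1 (3.11 ± 0.32), Spred2 (1.53 ± 0.24) and Spry1 (1.09 ± 0.33) were on the same side, and so was Epha4 (5.32 ± 0.46), an ephrin receptor. Spry1 lost its call without Flt3-ITD replicate 4 or NHD13 replicate 1 or 4.

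The wild-type means of Etv5 (33.6 ± 7.78 CPM), Etv1 (3.02 ± 0.345 CPM) and Spred2 (8.63 ± 2.62 CPM) lay near those of NHD13. The wild-type mean of Dusp6 (203 ± 50 CPM) lay under every NHD13 library and above every Flt3-ITD library. The Flt3-ITD/NHD13 means lay near Flt3-ITD for Dusp6 (53.9 ± 19.8 CPM), Etv5 (5.27 ± 0.631 CPM) and Etv1 (0.57 ± 0.137 CPM). Wild-type levels of the other members higher in NHD13 are not described here. Emp1, an epithelial membrane protein, was higher in Flt3-ITD (-2.49 ± 0.20), as were the phosphatase Dusp5 (-1.36 ± 0.20), Epha2 (-1.84 ± 0.64) and Ier3 (-0.69 ± 0.14). Epha2 had overlapping groups and lost its call with no filter on low counts, with a sex term and without Flt3-ITD replicate 1 or 2 or any 1 NHD13 library. Spry2 did not pass (0.43 ± 0.24, adjusted p = 0.267). Among 13 tested immediate early and stress genes, which answer signals within minutes, 4 were higher in NHD13. In Flt3-ITD 0 were higher by edgeR, 0 at an unadjusted p under 0.05 and 0 by DESeq2. Those higher in NHD13 were Egr1, at 14.7, 18.3, 12.6 and 13.5 CPM against 1.75, 1.19, 0.836 and 0.224 CPM (3.82 ± 0.43, adjusted p = 1.74e-07), Jun (1.56 ± 0.44), Nr4a1 (1.38 ± 0.25) and Btg2 (0.67 ± 0.13). Fos, which tissue handling also induces, varied within groups and did not pass (1.38 ± 1.05, adjusted p = 0.437). In the fit of these 8 libraries alone it passed as higher in NHD13, 1 of 6 there.

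**Figure D4:**
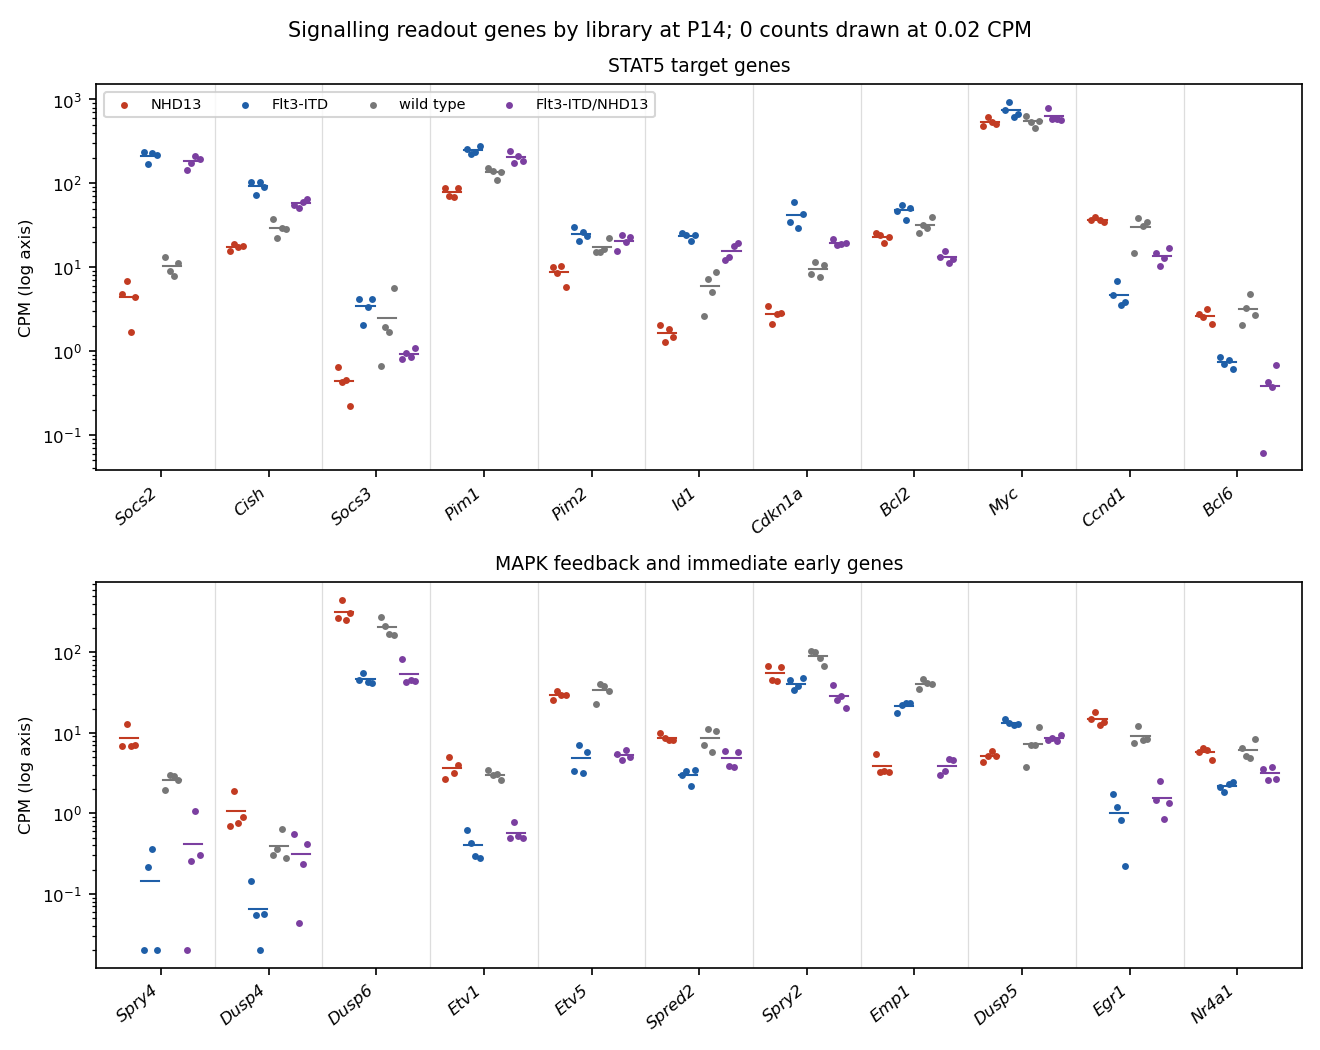
CPM (log axis) of STAT5 target genes (upper row) and MAPK feedback and immediate early genes (lower row) in each P14 library of NHD13, Flt3-ITD, wild type and Flt3-ITD/NHD13; points are libraries, bars are group means and 0 counts are drawn at 0.02 CPM. Socs2 to Myc sit higher in Flt3-ITD than in NHD13, whereas Ccnd1, Bcl6, Spry4 to Spred2, Egr1 and Nr4a1 sit higher in NHD13, and Spry2 overlaps between them.

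The granulocyte-monocyte side showed the reverse order from the megakaryocyte-erythroid one. Of 30 tested granulocyte-monocyte progenitor genes, 14 were higher in Flt3-ITD and 1 in NHD13 (median -0.83). Csf1r, the receptor for the macrophage growth factor M-CSF, was at 4.49, 5.86, 8.28 and 7.07 CPM in NHD13 and 52.4, 59.2, 46.2 and 57.3 CPM in Flt3-ITD (-3.06 ± 0.19, adjusted p = 5.41e-13). Irf8, the factor that directs cells to the monocyte and dendritic lineages (chromosome 8, 120736358 to 120756694, plus strand), was at 24.3, 24.7, 22.7 and 18.7 CPM against 91.6, 108, 75.9 and 85 CPM (-1.99 ± 0.18, adjusted p = 2.64e-09). Prtn3, a granule protease, was at 81.8, 70.4, 79.3 and 70.8 CPM against 244, 279, 230 and 240 CPM (-1.72 ± 0.15). The lowest Flt3-ITD library exceeded the highest NHD13 library for each.

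Cebpa, the factor that commits progenitors to granulocytes and monocytes, was low in both groups, at 1 ± 0.467 CPM and 4.61 ± 0.791 CPM (-2.17 ± 0.34). The granule protein gene Nkg7 (-2.53 ± 0.25), the protease Ctsg (-1.79 ± 0.39), the toll receptor partner Ly86 (-1.44 ± 0.38), the receptor subunits Csf2rb (-1.30 ± 0.11) and Csf3r (-1.19 ± 0.18), lysozyme Lyz2 (-1.09 ± 0.11) and Gfi1 (-0.99 ± 0.25) followed. Mpo, myeloperoxidase, was at 722, 991, 718 and 777 CPM in NHD13 and 1737, 1833, 1475 and 1876 CPM in Flt3-ITD. Its groups did not overlap, but its adjusted p of 0.0501 missed the threshold (-1.11 ± 0.38). Mpo passed in the fit of these 8 libraries alone and in DESeq2. Elane (0.05 ± 1.05, adjusted p = 0.985) and Spi1 (-0.23 ± 0.27, adjusted p = 0.661) did not pass. The Fc receptor Fcgr3 was the member higher in NHD13 (0.95 ± 0.28), and lost its call without Flt3-ITD replicate 1 or 3 or NHD13 replicate 2.

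The 11 macrophage and monocyte markers summed to 153 to 194 CPM in NHD13 and 313 to 368 CPM in Flt3-ITD. Of 10 tested, 4 were higher in Flt3-ITD (median 0.38, on the NHD13 side): Csf1r, Lyz2, Cd68 (-0.55 ± 0.18) and Adgre1, which encodes F4/80, at 3.6 ± 1.5 CPM against 20 ± 4.67 CPM (-2.46 ± 0.27). Csf1r, Lyz2 and Cd68 also stand in the granulocyte-monocyte progenitor list, and Lyz2 alone averaged 95.9 ± 11.7 and 204 ± 24.6 CPM of these sums. Cd68 lost its call with no filter on low counts, with a sex term and without Flt3-ITD replicate 2 or 3 or NHD13 replicate 1, 2 or 3. Of 8 tested dendritic cell markers 1 was higher in each group (median 0.35), Clec10a in Flt3-ITD (-1.75 ± 0.22) and Flt3 in NHD13. Over all tested genes 18.4% were called. The 11 dendritic cell markers summed to 1041 to 1307 CPM in NHD13 and 894 to 1006 CPM in Flt3-ITD. Flt3, the altered gene itself, made up most of these sums, at 1018 ± 104 CPM in NHD13 and 733 ± 37.9 CPM in Flt3-ITD. Of 8 tested neutrophil markers 0 passed in edgeR, 0 had an unadjusted p under 0.05 and 0 passed in DESeq2. The 11 neutrophil markers summed to 20.4 to 41.2 CPM in NHD13 and 16.9 to 79 CPM in Flt3-ITD. The part of these cells in the difference was not tested.

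Lymphoid priming and B-lineage genes, which mark the first steps toward lymphocytes, were split. Of 28 tested, 10 were higher in Flt3-ITD and 5 in NHD13 (median -0.4). Without Flt3-ITD replicate 2 these counts were 5 and 8. That library stood out for B-lineage transcripts: Igll1, a surrogate light chain, was at 13.8, 116, 9.98 and 36.5 CPM in Flt3-ITD and 9.87, 0.342, 1.1 and 5.5 CPM in NHD13 (-3.42 ± 0.92, adjusted p = 0.0122), and lost its call without it and in the fit of these 8 libraries alone. Cd79a, a B cell receptor chain, was at 10.8, 73.4, 8.84 and 22.7 CPM and 18.5, 3.29, 6.87 and 13 CPM, with overlapping groups (-1.48 ± 0.63, adjusted p = 0.123). Ebf1, the B-lineage factor, overlapped as well (-1.41 ± 0.54, adjusted p = 0.0834), and passed without Flt3-ITD replicate 3. Vpreb1, the other surrogate light chain, kept its call in every alternative (-3.17 ± 0.60). The 9 B and plasma cell markers summed to 704 to 905 CPM in NHD13 and 905 to 1417 CPM in Flt3-ITD, and their part was not tested. Ighm made up most of these sums, at 552 ± 96.2 CPM in NHD13 and 822 ± 147 CPM in Flt3-ITD (-0.57 ± 0.17). It lost its call with no filter on low counts and without Flt3-ITD replicate 2 or NHD13 replicate 1, 3 or 4.

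Dntt, the terminal transferase of lymphoid-primed progenitors, was at 242, 389, 287 and 345 CPM in NHD13 and 623, 729, 706 and 592 CPM in Flt3-ITD (-1.07 ± 0.20, adjusted p = 0.000323). The thymus-homing receptor Ccr9 was at 4.93, 6.11, 3.64 and 3.65 CPM against 11.4, 18.3, 10.1 and 13.1 CPM (-1.52 ± 0.34), and both groups lay far under the wild-type mean of 65.7 ± 12.2 CPM. The co-stimulatory receptor Cd27 was also higher in Flt3-ITD (-0.86 ± 0.17). On the NHD13 side were the IL-12 subunit Il12a, at 131, 163, 149 and 186 CPM against 72.2, 86.2, 74 and 58.2 CPM (1.12 ± 0.16), the Ikaros family members Ikzf2 (0.73 ± 0.11) and Ikzf1 (0.27 ± 0.08), and Bcl11a (0.40 ± 0.11), besides Flt3 itself. Ikzf1 lost its call without Flt3-ITD replicate 3 or 4 or NHD13 replicate 2. Il7r, the IL-7 receptor, did not pass (0.34 ± 0.31, adjusted p = 0.533), and passed without Flt3-ITD replicate 2.

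Type I interferon-stimulated genes are switched on through the interferon receptor in antiviral defence, and a low tone of them is present in many blood progenitors. Of 49 tested, 16 were higher in NHD13 and 1 in Flt3-ITD (median 0.56). The number in NHD13 was 8 without Flt3-ITD replicate 3, 8 without Flt3-ITD replicate 4, and 26 in a fit of these 8 libraries alone. Ifit1 (chromosome 19, 34640871 to 34650009, plus strand), which binds foreign RNA, was at 133, 190, 126 and 158 CPM in NHD13 and 105, 52.4, 46 and 36 CPM in Flt3-ITD (1.33 ± 0.39, adjusted p = 0.0211). Oasl2, an antiviral enzyme relative, was at 378, 526, 487 and 459 CPM against 357, 302, 192 and 213 CPM (0.80 ± 0.26, adjusted p = 0.0343). Flt3-ITD replicate 1 was the highest of its group for both, and stayed under the lowest NHD13 library. Ifit1 lost its call without Flt3-ITD replicate 2, 3 or 4 or NHD13 replicate 2. Oasl2 lost it with no filter on low counts and without Flt3-ITD replicate 3 or 4 or NHD13 replicate 2, 3 or 4.

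Ifit2, at 105, 123, 118 and 120 CPM against 70.5, 70.6, 55.6 and 55.4 CPM (0.88 ± 0.12, adjusted p = 3.2e-06), and Sp100, a nuclear body protein, at 402, 522, 453 and 474 CPM against 322, 322, 261 and 265 CPM (0.66 ± 0.14, adjusted p = 0.00064), kept their calls in every alternative. Zbp1, a nucleic acid sensor, differed by 1.22 ± 0.34 and lost its call without Flt3-ITD replicate 4. Ifi209 (1.20 ± 0.37) and Ifit3b (1.30 ± 0.45) lost theirs in 5 and 9 of the alternatives, both without Flt3-ITD replicate 3 or 4 or NHD13 replicate 3 or 4 and Ifit3b also without NHD13 replicate 1 or 2, and reads of Ifit3b can be shared with its paralog Ifit3. Irf7, the factor that amplifies the interferon response, was at 388, 519, 586 and 501 CPM and 280, 389, 141 and 150 CPM, with overlapping groups (1.05 ± 0.38, adjusted p = 0.0657), and passed in DESeq2 and without Flt3-ITD replicate 2. Usp18, a brake on the receptor, and Isg15 did not pass (1.17 ± 0.45 and 0.84 ± 0.33, adjusted p = 0.0826 and 0.0911), nor did Mx1 (0.52 ± 0.51, adjusted p = 0.572). Phf11b, one of a family of near copies, was the member higher in Flt3-ITD (-0.54 ± 0.15). Ifitm1, the interferon-inducible gene given above with the stem cell genes, is not in this list. It was higher in Flt3-ITD, by more than any interferon-stimulated gene named here differed.

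The means of Flt3-ITD/NHD13 exceeded those of both single mutants for Ifit1 (277 ± 44 CPM), Oasl2 (726 ± 57.7 CPM) and Irf7 (893 ± 94.3 CPM). The wild-type means were the lowest of the 4, at 45.1 ± 25.7, 200 ± 57.9 and 131 ± 54.9 CPM.

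**Figure D5:**
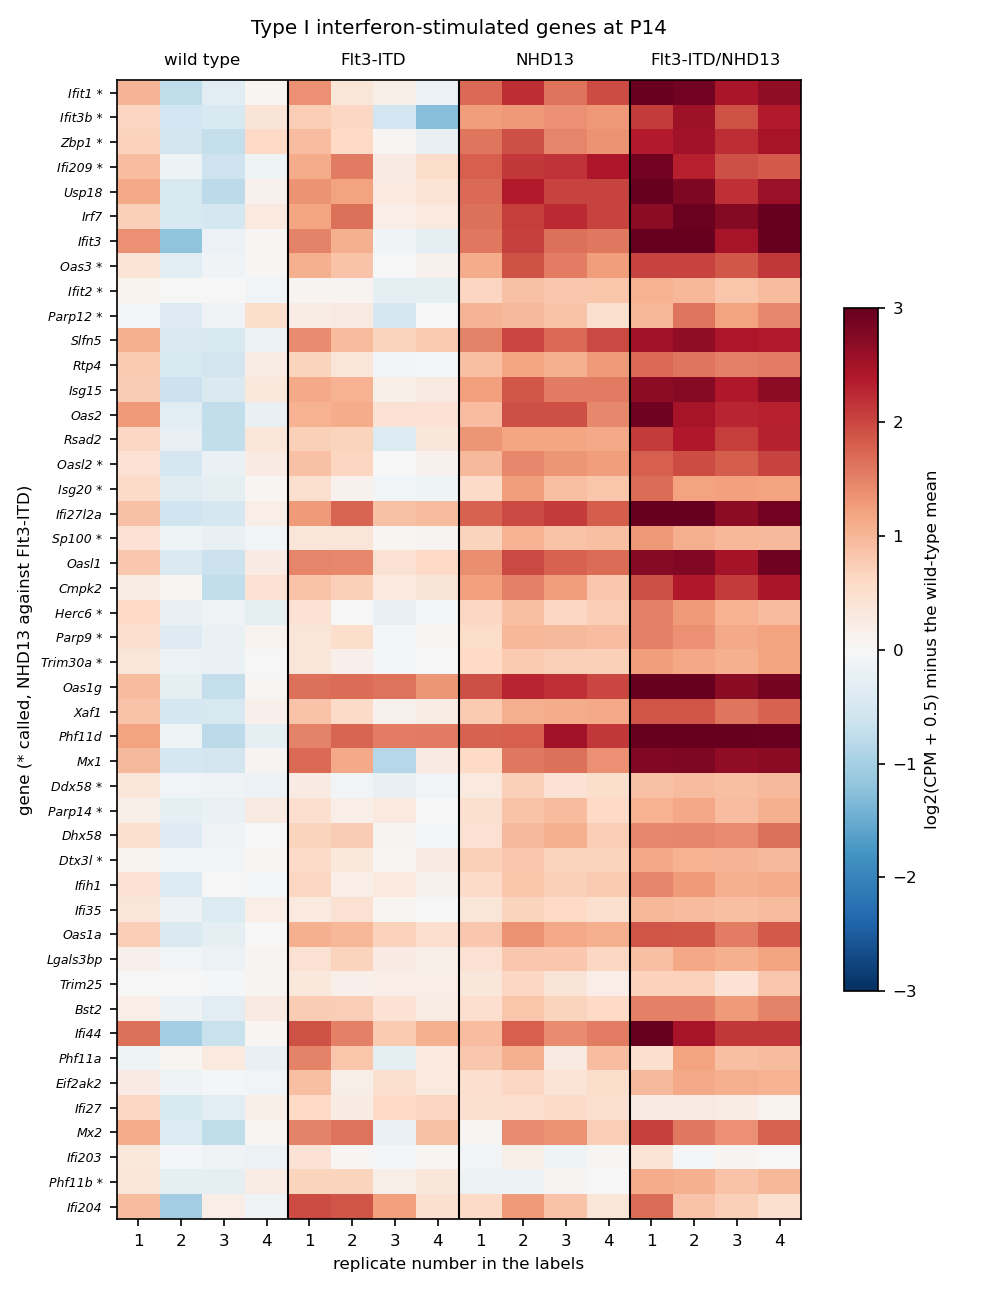
Heat map of 46 of the 49 tested type I interferon-stimulated genes (rows, ordered by the NHD13 minus Flt3-ITD difference, * for called) in the 16 P14 libraries of 4 genotypes (columns), as log2(CPM + 0.5) minus the wild-type mean, with colours limited to 3 either way. Flt3-ITD replicates 3 and 4 are paler than replicates 1 and 2 for genes such as Irf7 and Oas3, the NHD13 libraries are more even, and the Flt3-ITD/NHD13 libraries are darkest for most genes.

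The promoter windows of Ifit1 and Ifit3b are shown because each holds a common form of the interferon response element more than once, GAAA followed by any 2 bases and GAAA again. They run 5′ to 3′ on the gene's strand (RefSeq, GRCm38.p6), and the capitals are the motif as read on that strand.
Ifit1 promoter (chr19:34640760-34640838, plus strand): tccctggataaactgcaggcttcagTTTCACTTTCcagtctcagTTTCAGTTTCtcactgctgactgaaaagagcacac
Ifit3b promoter (chr19:34607744-34607837, plus strand): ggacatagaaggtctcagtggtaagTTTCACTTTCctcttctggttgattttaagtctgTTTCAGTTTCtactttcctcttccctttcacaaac
This motif, on either strand, was found in 6 of 18 windows of the 13 matched genes higher in NHD13 (33.3%) and in 3.44% of all 32851 windows. The list was chosen as interferon-stimulated, so this share describes the list and not the difference between the genotypes.

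Of 31 MHC and interferon-gamma-linked genes, 4 were higher in NHD13 and 4 in Flt3-ITD (median 0.12), beside 18.4% called over all tested genes. The nonclassical class I genes H2-Q7, at 79.7, 43.5, 87.4 and 45.5 CPM against 14.5, 24.4, 16.1 and 19.4 CPM (1.79 ± 0.45), and H2-Q6 (1.48 ± 0.41) were higher in NHD13, as were the GTPases Irgm1 (0.73 ± 0.15) and Gbp2 (0.57 ± 0.13). H2-Q6 and H2-Q7 are near copies, so their reads can be shared. The class II invariant chain Cd74, at 48.9, 69.9, 40.1 and 73 CPM against 134, 155, 136 and 93.8 CPM (-1.16 ± 0.33), the class II chain H2-Aa (-1.18 ± 0.33) and the GTPase Gbp3 (-0.80 ± 0.13) were higher in Flt3-ITD, besides the peptide transporter Tap2 (-0.35 ± 0.10). H2-Q6 and H2-Aa lost their calls without NHD13 replicate 3, Cd74 without Flt3-ITD replicate 2 or NHD13 replicate 1 or 3, and Tap2 without Flt3-ITD replicate 1 or 2 or NHD13 replicate 1 or 4. The number in Flt3-ITD was 2 without Flt3-ITD replicate 2, NHD13 replicate 1 or NHD13 replicate 3. B2m, the class I light chain, was at 5193 ± 620 CPM and 4436 ± 239 CPM and did not pass (0.23 ± 0.10, adjusted p = 0.102).

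Receptors for cytokines and growth factors decide which signals a progenitor can answer, and 17 of 47 were higher in Flt3-ITD and 10 in NHD13 (median -0.18). Among those higher in Flt3-ITD were Csf1r, the IL-18 receptor Il18r1, at 1.48, 3.03, 2.62 and 1.79 CPM in NHD13 and 19.2, 12.9, 17 and 14.7 CPM in Flt3-ITD (-2.82 ± 0.27), Il10ra (-2.20 ± 0.20), Il6ra (-1.66 ± 0.26), Il1r1 (-1.64 ± 0.20), Csf2rb and Csf3r. The NHD13 side held Il1rl1, Epor, Kit and Flt3, besides Tgfbr3 (1.19 ± 0.18) and Il21r (0.74 ± 0.13). Kit, the stem cell factor receptor, differed by only 0.36 ± 0.12 (adjusted p = 0.0405), and lost its call with no filter on low counts, with a sex term and without Flt3-ITD replicate 2, 3 or 4 or NHD13 replicate 2, 3 or 4.

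Of 22 tested chemokine receptors and homing genes 4 were higher on each side, beside 18.4% called over all tested genes. S1pr3, a receptor for sphingosine-1-phosphate (chromosome 13, 51408639 to 51422797, plus strand), was at 1.18, 3.16, 2.28 and 1.46 CPM in NHD13 and 56.1, 59.1, 52.5 and 63.4 CPM in Flt3-ITD (-4.81 ± 0.44, adjusted p = 6.47e-08). S1pr1, the receptor of the same ligand that guides exit into the blood, went the other way, at 27.6, 23.6, 39.9 and 32.6 CPM against 14.3, 14.6, 11.2 and 17.2 CPM (1.11 ± 0.14). These 2 receptors of 1 ligand thus differed in opposite directions. S1pr2, of the same receptor family, did not pass (-0.58, adjusted p = 0.105), but passed as higher in Flt3-ITD without NHD13 replicate 3. The chemokine receptors Ccr1 (3.98 ± 0.54) and Cxcr3 (1.75 ± 0.32) and the oxysterol receptor Gpr183 (2.53 ± 0.54) were higher in NHD13, and the selectin ligand Selplg (-0.88 ± 0.11), Ccr9 and Cd44 (-0.35 ± 0.08) in Flt3-ITD.

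Of 26 tested integrins and cadherins, 7 were higher in NHD13 and 1, Itgb5 (-1.35 ± 0.27), in Flt3-ITD. The share called over all tested genes was 18.4%. Cdh17, a cadherin, was at 23.1, 29, 22.4 and 32.1 CPM in NHD13 and 0.0365, 0.379, 0.179 and 0 CPM in Flt3-ITD (7.53 ± 0.76, adjusted p = 1.8e-07), with 6.86 ± 3.66 CPM in the wild type. Itga8 had 500 counts in NHD13 and 2 in Flt3-ITD, a ratio of 229 (95% counting interval 63.1 to 1900). The leukocyte integrin chain Itgb2 was at 262, 325, 336 and 319 CPM against 103, 107, 117 and 104 CPM (1.53 ± 0.10), and its partner Itgal (0.54 ± 0.11) and Itga4 (0.60 ± 0.07), which holds progenitors in the marrow, were on the same side.

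Among 36 blood transcription factors, 11 were higher in NHD13 and 7 in Flt3-ITD. Besides Gata1, Gata2, Klf1 and Gfi1b, the NHD13 side held Sox6, a factor of red cell maturation, at 14.1 ± 2.02 CPM against 4.58 ± 1.02 CPM (1.62 ± 0.22), and Mef2c, of lymphoid and megakaryocyte development, at 1134 ± 70.8 CPM against 704 ± 52 CPM (0.69 ± 0.07, adjusted p = 3.8e-09). Gata3, the factor of T and innate lymphoid cells, was at 2.81, 0.598, 3.3 and 3.25 CPM in NHD13 and 38.9, 27.1, 33.3 and 33.8 CPM in Flt3-ITD (-3.75 ± 0.27, adjusted p = 1.05e-10). Gata3 thus lay on the other side from Gata1 and Gata2. Runx2 (-0.48 ± 0.10) and Runx1 (-0.42 ± 0.13) were higher in Flt3-ITD and Runx3 (0.43 ± 0.10) in NHD13. The Runx1 libraries overlapped, and its call was lost without Flt3-ITD replicate 1 or 4 or NHD13 replicate 2, 3 or 4.

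Of 43 cell cycle and replication genes 4 were higher in NHD13 and 6 in Flt3-ITD (median -0.03), beside 18.4% called over all tested genes. The proliferation marker Mki67 was at 190 ± 10.9 CPM and 193 ± 21.1 CPM (-0.03 ± 0.14, adjusted p = 0.936). Top2a, of S and G2 phase, did not pass either (-0.05 ± 0.09, adjusted p = 0.776). Among those called, Ccnd1 and Cdkn2d (0.59 ± 0.09) were higher in NHD13, and Cdkn1a, Ccnd2, Cdk6 (-0.64 ± 0.13) and Cdk4 (-0.26 ± 0.07) in Flt3-ITD. The other calls were the mitotic cyclin Ccnb1 and the repressor E2f8, higher in NHD13, and the replication genes Tyms (-0.30 ± 0.11) and Gins2 (-0.27 ± 0.09), higher in Flt3-ITD. Tyms and Gins2 lost their calls with no filter on low counts, with DESeq2's size factors and without Flt3-ITD replicate 2 or 3 or any 1 NHD13 library, and Tyms also in DESeq2, with a sex term and without Flt3-ITD replicate 4. Of 29 MYC and ribosome biogenesis genes, 2 were higher in Flt3-ITD, Myc and the polyamine enzyme Srm (-0.56 ± 0.14), and 1 without Flt3-ITD replicate 2. In NHD13 0 were higher by edgeR, 0 at an unadjusted p under 0.05 and 0 by DESeq2.

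Of 19 p53 target genes, 6 were higher in NHD13 and 4 in Flt3-ITD, beside 18.4% called over all tested genes. Fas, a death receptor (2.37 ± 0.55), and Pmaip1, a BH3-only killer of the BCL2 family (1.96 ± 0.37), were on the NHD13 side with Mdm2 (0.31 ± 0.10), while Cdkn1a, Perp (-1.59 ± 0.52) and Bax (-0.26 ± 0.08) were on the Flt3-ITD side. Mdm2, Bax and Perp lost their calls with no filter on low counts. Mdm2 and Bax also lost theirs without Flt3-ITD replicate 2 or 3 or NHD13 replicate 4, Mdm2 also without NHD13 replicate 2, and Perp without any 1 of 6 of the 8 libraries. The number in Flt3-ITD was 1 without NHD13 replicate 4. Of 37 polycomb and trithorax regulators, 8 were higher in NHD13 and 1 in Flt3-ITD, beside 18.4% called over all tested genes. The count of 1 was 0 without Flt3-ITD replicate 1, 2 or 4 or NHD13 replicate 1 or 3. Jarid2, a polycomb subunit (0.82 ± 0.10), Dnmt3b (0.56 ± 0.07) and Dnmt3a (0.45 ± 0.08), the de novo DNA methyltransferases, the demethylase Kdm6b (0.61 ± 0.12) and Bmi1 (0.48 ± 0.13) were among the 8.

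Beyond the lists, genes far higher in Flt3-ITD included the small GTPase Rab44, at 2.62, 2.44, 3.11 and 1.23 CPM in NHD13 and 28.3, 35.2, 22.2 and 25.3 CPM in Flt3-ITD (-3.54 ± 0.27), and the mitochondrial subunit Cox4i2 (-3.82 ± 0.34). The potassium channel Kcnk5 was at 13.1, 15.3, 16.3 and 15 CPM against 118, 97.9, 119 and 113 CPM (-2.91 ± 0.10, adjusted p = 3.52e-18), and Dpp4, a surface peptidase, at 15.1, 13, 13.5 and 15.5 CPM against 108, 114, 111 and 120 CPM (-2.99 ± 0.12, adjusted p = 2.81e-17). Both had small spread, and the lowest Flt3-ITD library was several times the highest NHD13 library. The immune adaptor Clnk (-3.18 ± 0.16), the kinase Dyrk4 (-3.13 ± 0.24), the serpin Serpina3f (-3.07 ± 0.33), the CD30 ligand Tnfsf8 (-3.07 ± 0.23) and the tetraspanin Cd53 (-1.55 ± 0.08) completed these. Ly6d, a marker of B-lineage bias, was at 16.2, 129, 19.2 and 25.5 CPM in Flt3-ITD and 4, 0.385, 2.92 and 3.03 CPM in NHD13 (-4.21 ± 0.76), with replicate 2 of Flt3-ITD far above the rest as for Igll1.

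Markers of the labelled cell type were present in all libraries. The 12 progenitor markers summed to 4829 to 5365 CPM in NHD13 and 5826 to 6162 CPM in Flt3-ITD, with 5 higher in NHD13 and 4 in Flt3-ITD. Cd48, a surface antigen used to separate multipotent progenitors from stem cells, was at 323, 359, 357 and 387 CPM in NHD13 and 709, 635, 773 and 800 CPM in Flt3-ITD (-1.03 ± 0.14, adjusted p = 3.25e-06), opposite to Slamf1. T and NK cell markers summed to 80.5 to 104 CPM in NHD13 and 301 to 392 CPM in Flt3-ITD. Nkg7 made up most of the Flt3-ITD sums, at 290 ± 41.8 CPM. In NHD13 the sums were mostly Nkg7 (50.1 ± 12.8 CPM) and Cd4 (34.4 ± 4.51 CPM) together. Cd4 was also called higher in Flt3-ITD (-0.51 ± 0.16). It lost that call with no filter on low counts and without Flt3-ITD replicate 2 or 4 or NHD13 replicate 1, 2 or 4. The defining T cell gene Cd3e had no count in either group. Tcrg-C1, a gamma chain segment, was at 11.5, 6.6, 11.5 and 13.2 CPM in Flt3-ITD and 0.987, 0.427, 0.683 and 0.897 CPM in NHD13 (-3.85 ± 0.31). Trac, the alpha chain segment, had 283 counts in NHD13 and 3 in Flt3-ITD, a ratio of 86.4 (95% counting interval 29.3 to 422). Hepatocyte markers summed to 19.7 to 29.2 CPM over both groups.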

How the data were processed

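RNA-seq was made from total RNA of hematopoietic progenitor cells with a SMART-type amplification kit, per the labels' protocols. The authors deposited raw counts per gene for 24 P14 libraries in 6 groups. STAR and featureCounts 1.4.5 are named in the submitters' processing notes, and the strand setting of the counting is not given in the sources used here. Gene IDs were matched to GENCODE M21 on GRCm38 for 40340 of 41388 IDs.

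All 24 libraries (13749184 to 27289085 counts each) entered 1 fit with edgeR 4.0.16 in R 4.3.3: filterByExpr kept 14394 genes with 99.93% of the counts, libraries were scaled by TMM, and the quasi-likelihood F test compared NHD13 with Flt3-ITD on 18 residual degrees of freedom. Adjusted p-values are Benjamini-Hochberg, called under 0.05. Simulated data of 14149 genes held 200 changed genes, all with a log2 mean CPM of 2 or more. This fit recovered 59.7% of those changed 1.5-fold, 94% at 2-fold and 100% at 4-fold. Of its calls there, 3.98% were on unchanged genes. CPM use TMM library sizes. Counting intervals are exact at 95% and, like the 3-count floor, cover counting error only, since no molecular identifiers are given.

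Named genes are the altered genes, the 15 largest changes and 6 smallest p-values each way among called genes whose log2 CPM averaged 2 or more and whose groups did not overlap, the 4 largest called changes each way in each list, and defining members. The 33 lists (689 genes) and their members were chosen with earlier results of these data known. Alternatives were a fit of the 8 libraries alone, DESeq2's size factors, DESeq2 1.42.0, no filter on low counts, a replicate block, a sex term and each library left out. Fold changes were taken only within the P14 table. Some listed genes count in the totals and are not reported here by name.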

Additional observations from a re-analysis of the deposited data

Results flagged for a closer look

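Among 490 gene and group pairs tested for a library far from its group, 31 (6.33%) had their highest or lowest library farther from the nearest other, as a share of the group's range, than Dixon's 95% limit for 4 samples. Chance flags about 1 in 20 groups. The flags fell on 5 values of Flt3-ITD replicate 1, 4 of replicate 2, 3 of replicate 3 and 5 of replicate 4, and on 4 values of NHD13 replicate 1, 7 of replicate 2 and 3 of replicate 3.

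In NHD13, replicate 1 was the highest library for Emp1 at 5.48 CPM (others 3.25 to 3.38), Prg2 at 4.29 CPM (others 2.43 to 2.65) and Runx1 at 58.5 CPM (others 38.7 to 41.3). In NHD13, replicate 1 was the lowest library for Flt3 at 863 CPM (others 1055 to 1087). In NHD13, replicate 2 was the highest library for Clec10a at 11.5 CPM (others 6.27 to 6.84), Dusp4 at 1.92 CPM (others 0.691 to 0.897) and Fcgr3 at 10.6 CPM (others 5.77 to 6.28). It was also the highest for Hmox1 at 32.2 CPM (others 24.8 to 25.6), Ifit3 at 23.2 CPM (others 16.7 to 17.7) and Ikzf1 at 295 CPM (others 265 to 266). It was also the highest for Spry4 at 13 CPM (others 6.91 to 7.12). In NHD13, replicate 3 was the highest library for Esam at 6.68 CPM (others 4.15 to 4.54) and Hoxd9 at 0.19 CPM (others all 0). In NHD13, replicate 3 was the lowest library for Hbb-bt at 147 CPM (others 201 to 205).

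In Flt3-ITD, replicate 1 was the highest library for Hoxc5 at 0.0365 CPM (others all 0), Hoxc6 at 0.0365 CPM (others all 0) and Il2ra at 1.53 CPM (others 0.478 to 0.616). It was also the highest for Spi1 at 27.9 CPM (others 14.8 to 16) and Tpsab1 at 0.584 CPM (others 0 to 0.056). In Flt3-ITD, replicate 2 was the highest library for Itgal at 167 CPM (others 129 to 132), Ly6d at 129 CPM (others 16.2 to 25.5) and Srm at 40.5 CPM (others 34.6 to 34.8). In Flt3-ITD, replicate 2 was the lowest library for Hlf at 216 CPM (others 275 to 287). In Flt3-ITD, replicate 3 was the highest library for Prss34 at 30.2 CPM (others 0.108 to 2.07). It was the lowest library for Cdkn2d at 68.2 CPM (others 74.9 to 75.6) and Mef2c at 626 CPM (others 725 to 735). In Flt3-ITD, replicate 4 was the highest library for Epx at 18.8 CPM (others 0.0541 to 0.179), Hoxb6 at 0.112 CPM (others all 0) and Hoxb7 at 0.056 CPM (others all 0). It was also the highest for Prg2 at 37.2 CPM (others 0.657 to 1.28). In Flt3-ITD, replicate 4 was the lowest library for Hba-a1 at 0.56 CPM (others 1.19 to 1.24).

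The Hoxb6, Hoxb7, Hoxc5 and Hoxc6 values in Flt3-ITD are single libraries with 1 or 2 counts, and that of Hoxd9 in NHD13 is 5 counts in 1 library. The eosinophil genes Epx and Prg2 stood out in the same Flt3-ITD library.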

How the results depend on the processing

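The 1326 genes higher in NHD13 and 1328 higher in Flt3-ITD became 1392 and 1346 in a fit of the 8 libraries alone, 1358 and 1284 with DESeq2's size factors, 1454 and 1391 with the DESeq2 test, 1283 and 1123 with no filter on low counts, and 1260 and 1274 with a sex term. With each library left out in turn, 1103 to 1276 genes were higher in NHD13 and 1094 to 1191 in Flt3-ITD, 2216 to 2414 in all. None of these settings called a gene in the direction opposite to the reported one. The replicate block gave 1319 and 1293. Deviations from the group means correlated at 0.006, 0.201, -0.04 and 0.291 between libraries of the same replicate number. Between libraries of different numbers they correlated at -0.326 to 0.234. So few values cannot decide whether the numbers pair the libraries, and the labels state no pairing. The block therefore stands only as an alternative.

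Of 613 named or listed genes tested, 540 of the 578 that remained kept their side of the threshold in the fit of the 8 libraries alone, and between 574 and 607 in each other setting, and none changed sign as a call. Among list counts that moved were the interferon-stimulated genes higher in NHD13, from 16 to between 8 and 26, and the lymphoid genes higher in Flt3-ITD, from 10 to 5 without Flt3-ITD replicate 2. The cause was not tested. The self-test recovered 59.7% at 1.5-fold, with 200 genes changed and none of them of low level. In the data many more genes were called and some named genes were lower, so its rates may not carry over. A gene that did not pass is not thereby shown to be unchanged.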
